A study of Mus musculus with 2 samples.

Results

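The VEGF and angiopoietin signalling genes described here are 10 named ligands, receptors and target genes of blood vessel growth: Vegfa, Vegfc, Angpt1, Angpt2, Flt1, Kdr, Tek, Tie1, Apln and Esm1. They were taken by gene symbol, and all 10 were found among the 32285 genes measured. Their levels were read in brain cell classes named from marker genes, in 7645 cells of a control mouse library and 5206 cells of a conditional knockout (cKO) library. The study asked what loss of Plexin-B2, a receptor for semaphorins, in myeloid cells does in brain that carries a glioblastoma graft. Cells of KR158, a glioblastoma line from mouse, had been injected into the brain of both hosts, and single-cell RNA-seq was done on the tissue around the injection site. The control host had the genotype Cx3cr1 CreER/+ Plxnb2 fl/+ and the cKO host Cx3cr1 CreER/+ Plxnb2fl/fl. The control, called WT in its title, thus carried 1 floxed Plxnb2 allele and is a heterozygote. Both hosts carried the tamoxifen-dependent Cre in the Cx3cr1 locus, which is active in microglia and related myeloid cells and not in vessel cells, so both are also heterozygous at Cx3cr1. Both were given tamoxifen at 100 mg/kg, beginning 3 days ahead of the graft and repeated on alternate days up to 8 weeks. Each genotype had 1 library, so no test between genotypes was possible, and genotype, animal and cell preparation cannot be told apart. Animal age, sex and number are not given in the labels.

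VEGF ligands bind receptor tyrosine kinases on the vessel lining: Vegfa binds the decoy-like Flt1 and the main signalling receptor Kdr, and Vegfc acts through Flt4 and Kdr. Angiopoietins bind the receptor kinase Tek, with Tie1 as its partner. Angpt1, made by the cells around vessels, steadies them, and Angpt2, made by endothelium, loosens that hold during remodelling. Apln, a peptide ligand, and Esm1, a secreted proteoglycan, are known as genes of the tip cells that lead a new sprout.

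Levels are given as CPM, the UMIs (distinct tagged RNA molecules) of a gene summed over the cells of a class and scaled to a class total of 1e+06. Bracketed values are exact 95% Poisson intervals, and intervals of log2 ratios (cKO over control) are exact conditional 95% intervals. All of them cover counting error only and leave out variation between animals. Kept control cells had a median of 4626 UMIs and kept cKO cells one of 5917, and 8 cell barcodes occurred in both libraries. The members and the other pathway genes were kept out of the genes used for clustering. Endothelial-like cells (685 control, 884 cKO) had 10 of 10 endothelial markers in at least 10% of cells, and pericyte-like or smooth-muscle-like (mural) cells (165 and 171) had 13 of 13 mural markers. Astrocyte-like (2620 and 1527), microglia-like (1402 and 749) and oligodendrocyte-like (938 and 559) cells carried 10 of 10, 10 of 10 and 9 of 9 of theirs. No cluster met the rule for tumour cells. Choroid plexus-like cells were 358 in control and 4 in cKO, and their transcript Ttr stood at 935 CPM in control and 0.910 CPM in cKO endothelial-like cells, with 1201 and 1.36 CPM in astrocyte-like cells. The part of such free RNA in the members' ratios was not tested, and choroid plexus-like control cells held 46.8 CPM of Vegfa. Unnamed cluster 7 (157 and 324 cells) and unnamed cluster 17 (78 and 82 cells) carried all 10 endothelial markers together with pericyte or red blood cell genes, and are given separately. The endothelial-like class itself still held mixed sub-clusters. Sub-cluster 6 (43 control and 60 cKO cells) was led by mural genes such as Pdgfrb, Vtn and Kcnj8. Sub-cluster 7 (27 and 18 cells) was led by genes such as Cxcl14 and Fjx1, which also led astrocyte clusters. Their part in the members' endothelial-like levels and ratios was not tested. The targeted gene Plxnb2 stood at 198 CPM (187 to 210.3, 1155 UMIs) in control microglia-like cells and at 36.7 CPM (31.2 to 42.9, 159 UMIs) in cKO microglia-like cells. Its log2 ratio was -2.43 (-2.68 to -2.19), which follows the labels. Whether the counted ends of its transcripts lie in the deleted part is not given in the sources used here.

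A difference between libraries counted as called when it reached 1.5-fold, its interval left out equality, and the gene averaged at least 20 CPM over both libraries. No replicate stands behind a call. In endothelial-like cells 2.41% of the 6295 genes tested were called, and the shares were 8.66% of 6629 genes in mural cells, 1.7% of 6468 in astrocyte-like cells and 5.11% of 6336 in microglia-like cells. They were 1.64% of 5804 genes in oligodendrocyte-like, 2.79% of 7173 in ependymal-like and 5.62% of 6158 in neuroblast-like cells.

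**Figure D1:**
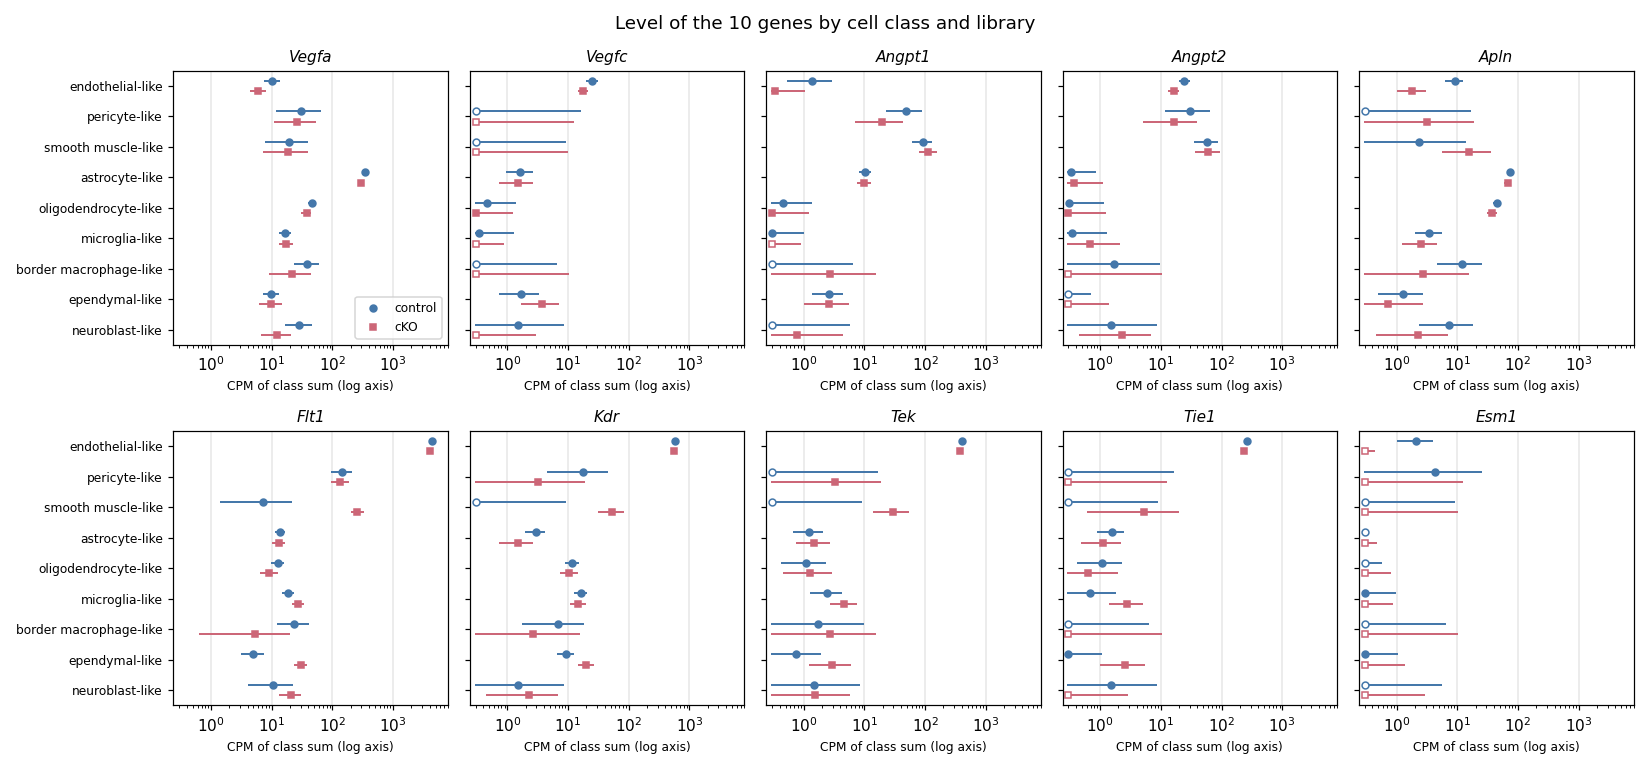
Level of each of the 10 genes in 9 cell classes, as CPM on a log axis, with the control and cKO library side by side. Lines are exact 95% Poisson intervals, open symbols mark classes with 0 UMIs, and values below 0.3 CPM are drawn at 0.3. The receptors Flt1, Kdr, Tek and Tie1 stand highest in endothelial-like cells and Vegfa and Apln in astrocyte-like cells, among the classes drawn.

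The ligand Vegfa was mainly an astrocyte transcript in both libraries. It stood at 349.5 CPM (339 to 360.2, 4285 UMIs) in control and 294 CPM (283 to 306, 2379 UMIs) in cKO astrocyte-like cells. Those held 80.9% and 82.1% of the Vegfa UMIs in all kept cells of their libraries. A Vegfa UMI was seen in 67.2% of control and 63.7% of cKO astrocyte-like cells. In microglia-like cells, at median depths of 3841 and 5262 UMIs against 4386 and 4987 in astrocyte-like cells, the shares were 6.06% and 6.01%. With every cell thinned to 1000 UMIs, 27.8% and 23.3% of astrocyte-like cells still held one. The log2 ratio of Vegfa was -0.25 (-0.32 to -0.18), lower in the cKO library beyond counting error and below the 1.5-fold line. Over the other filters, depths and clusterings tried it lay between -0.43 and -0.18.

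Astrocyte clusters differed in Vegfa more than the libraries did. Cluster 4 (754 and 435 cells), whose leading genes include the transcription factor Etv4 and the glutamate receptor subunit Grin2c, had the highest level of Vegfa, 483 CPM in control and 488 CPM in cKO, with a log2 ratio of 0.01 (-0.10 to 0.13). Cluster 1 (1017 and 631 cells), led by genes such as Hopx and Emx2, held 348 and 272 CPM of Vegfa, a log2 ratio of -0.36 (-0.47 to -0.25). Cluster 5 (598 and 210 cells), led by the angiotensinogen gene Agt, held 274 and 209 CPM of Vegfa, a log2 ratio of -0.39 (-0.62 to -0.16). Lowest were clusters 11 and 18. Cluster 11 (164 and 133 cells), shallow at a median of 1558 UMIs per cell, held 155 and 100.3 CPM of Vegfa, a log2 ratio of -0.62 (-1.39 to 0.10). Cluster 18 (81 and 79 cells), led by Gfap and Nkx2-1 among others, held 107 and 72.2 CPM, a log2 ratio of -0.56 (-1.12 to -0.01). The lower Vegfa of the cKO library thus went beyond counting error in clusters 1, 5 and 18, lay within it in cluster 11, and was not seen in cluster 4. Cluster 24 (6 control and 39 cKO cells), led by interferon-response genes such as Ifit3 and Cxcl10, held 251 CPM of Vegfa in the cKO library, and its control cells were too few to give a level.

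**Figure D2:**
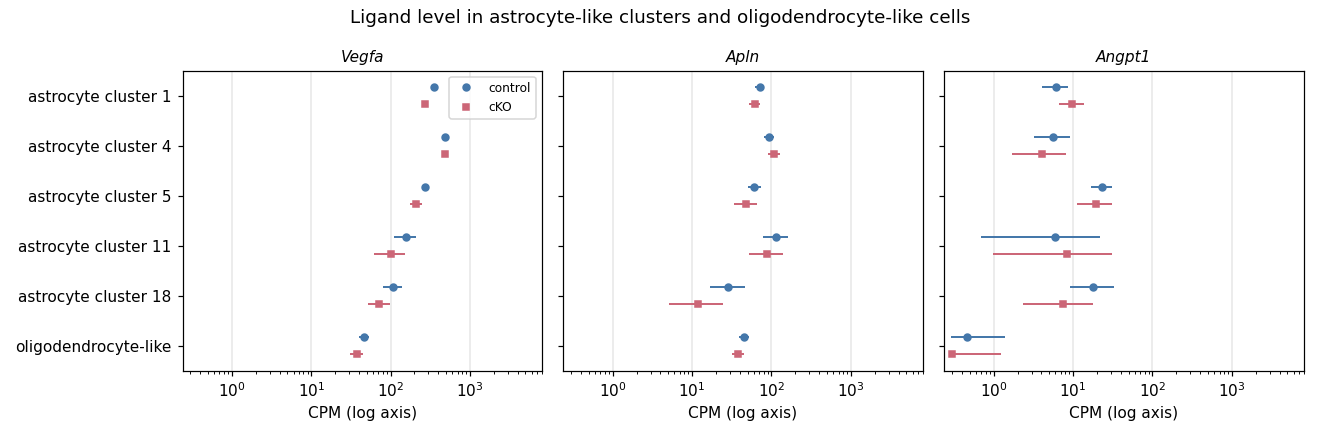
CPM (log axis) of Vegfa, Apln and Angpt1 in astrocyte clusters 1, 4, 5, 11 and 18 and in oligodendrocyte-like cells, for the control and the cKO library, with exact 95% Poisson intervals. Vegfa is highest in cluster 4, and Angpt1 is highest in cluster 5.

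In the other classes compared, the level of Vegfa was far lower. Some classes of few cells stood between. Fibroblast-like cells (20 control, 15 cKO) held 185 and 101 CPM of Vegfa from 26 and 11 UMIs. Red blood cell-like cells (12 and 12) held 170 and 85.2 CPM from 13 and 8 UMIs, and neuron-like cells (27 and 11) 79.7 and 63.8 CPM from 8 and 6 UMIs. Oligodendrocyte-like cells held 46.3 CPM of Vegfa in control and 37.5 in cKO (20.4% and 20.9% of cells), with a log2 ratio of -0.30 (-0.58 to -0.03). Microglia-like cells, in which the knockout acts, held 16.7 and 17.3 CPM, a log2 ratio of 0.05. Mural cells held 23.0 and 21.8 CPM of Vegfa from 15 UMIs each. Endothelial-like cells held 10.2 and 6.03 CPM from 53 UMIs each, a log2 ratio of -0.76 (-1.33 to -0.18) that lay under the 20 CPM minimum. They include sub-cluster 7 (27 control and 18 cKO cells), led by genes that also led astrocyte clusters, and its part in these values was not tested. In neuroblast-like cells the values were 28.2 and 12.1 CPM of Vegfa, from 19 UMIs in 11 control cells and 16 UMIs in 14 cKO cells. Vegfa was the only member that passed the 20 CPM minimum in that class, where 5.62% of all genes tested were called. It was called lower in the cKO library, at a log2 ratio of -1.21 (-2.27 to -0.18). Without the 1 cell of each library with most Vegfa UMIs this ratio was -0.85 and no longer called. After astrocyte-like cells, the neighbouring classes in the order of Vegfa levels had overlapping intervals in both libraries, except microglia-like above endothelial-like cells in control.

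Among the classes compared, the ligand Vegfc was highest in endothelial-like cells, at a low level, and was concentrated in arterial-like cells. The few fibroblast-like cells (20 control, 15 cKO) held 4 and 8 Vegfc UMIs, 2 and 4 of them in cells with at least 5 endothelial marker UMIs. Without such cells the fibroblast-like level of Vegfc was 25.1 and 49.9 CPM. Endothelial-like cells as a whole held 24.8 CPM of Vegfc in control (129 UMIs, 10.1% of cells) and 17.7 CPM in cKO (156 UMIs, 9.73% of cells). Its log2 ratio was -0.48 (-0.83 to -0.13), short of 1.5-fold, and -0.09 when clusters 7 and 17 were joined to the class. Cluster 7 alone held 21.1 and 29.1 CPM of Vegfc, higher in the cKO library by 0.47 on the log2 scale (0.04 to 0.91). Cluster 17 held 24.8 and 19.3 CPM of Vegfc, a log2 ratio of -0.36 (-1.19 to 0.46), so cluster 7 alone of these went the other way. The sub-cluster with arterial markers (81 and 116 cells) held 104 CPM of Vegfc (83.0 to 128) in control and 70.2 CPM (57.3 to 85.2) in cKO, with a Vegfc UMI in 44.4% and 40.5% of cells. Its log2 ratio was -0.56 (-0.99 to -0.13). Venous-like cells held 19.5 CPM (11 UMIs in 27 cells) and 11.96 CPM (23 UMIs in 83 cells) of Vegfc, and endothelial-like cells outside these subtypes 8.16 and 5.55 CPM. Among microglia-like cells 0.143% of control cells and 0% of cKO cells (0 of 749) held a Vegfc UMI. Mural cells held 0 Vegfc UMIs in both libraries, which allows up to 4.61 CPM in control and 4.36 CPM in cKO.

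Angpt1, the Tek-activating ligand, was highest in the smooth-muscle-like part of the mural cells. Mural cells held 75.3 CPM of Angpt1 in control and 71.2 CPM in cKO, from 49 UMIs each, in 19.4% and 16.4% of cells, with a log2 ratio of -0.08 (-0.68 to 0.52). Smooth-muscle-like cells (72 and 71) held 90.3 and 113 CPM of Angpt1 (38 and 43 UMIs), a log2 ratio of 0.33 (-0.34 to 1.00). Pericyte-like cells (93 and 100) held 47.7 and 19.4 CPM from 11 and 6 UMIs. Microglia-like cells held 1 Angpt1 UMI in control and 0 in cKO. Astrocyte-like cells held Angpt1 at a lower level, 10.2 and 9.90 CPM, in 3.82% and 4.45% of cells. Because astrocyte-like cells were many, they held 57.3% and 44.9% of the Angpt1 UMIs in each library's kept cells, against 22.5% and 27.5% in mural cells. Within them Angpt1 was highest in the Agt-led cluster 5, at 23.2 and 19.2 CPM. Endothelial-like cells, which carry the receptor, held 1.35 and 0.341 CPM of Angpt1.

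Angpt2, the Tek ligand of remodelling vessels, was found in both mural and endothelial-like cells, and also in the few fibroblast-like cells (20 control, 15 cKO). Fibroblast-like cells held 5 and 14 Angpt2 UMIs, 1 and 0 of them in cells with at least 5 endothelial marker UMIs. Without such cells the fibroblast-like level of Angpt2 was 50.2 and 174.6 CPM. Mural cells held 47.6 CPM of Angpt2 in control (31 UMIs, 10.3% of cells) and 40.7 CPM in cKO (28 UMIs, 12.9% of cells), a log2 ratio of -0.23 (-1.02 to 0.56). Smooth-muscle-like cells held 57.1 and 60.7 CPM of Angpt2. Of mural cells with an Angpt1 UMI, 21.9% of control and 35.7% of cKO cells also had an Angpt2 UMI, against 7.52% and 8.39% of the mural cells without Angpt1. At 1000 UMIs per cell this was not seen in control, where 0 of 12 mural cells with Angpt1 held Angpt2 against 1.96% of the others. In cKO it was 1 of 12 (8.33%) against 2.52%.

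In endothelial-like cells Angpt2 stood at 24.4 CPM in control (127 UMIs in 62 cells) and 16.3 CPM in cKO (143 UMIs in 90 cells), that is in 9.05% and 10.2% of cells. It was the single member called in this class, lower in the cKO library at a log2 ratio of -0.59 (-0.94 to -0.23). The class was made up differently in each library: sub-cluster 1 held 34 control and 241 cKO cells, sub-cluster 2 held 177 and 88, and sub-cluster 3 held 183 and 28. A single control cell held 19 of the Angpt2 UMIs. Without the cell with most Angpt2 UMIs of each library the log2 ratio was -0.41 (-0.79 to -0.03) and not called, and with clusters 7 and 17 joined it was -0.48, from 22.7 and 16.2 CPM, and not called. The share of endothelial-like cells with Angpt2 was higher in the cKO library at full depth, where cKO cells are deeper, and lower at 1000 UMIs per cell, with 2.19% of control (15 cells) and 1.81% of cKO cells (16 cells). Angpt2 was the leading gene of endothelial sub-cluster 0 (96 control and 208 cKO cells), at 49.1 CPM in 27.1% of control cells and 35.0 CPM in 21.2% of cKO cells there. Within it the log2 ratio of Angpt2 was -0.49 (-0.99 to 0.02). Arterial-like cells held 5.96 and 6.82 CPM of Angpt2, and venous-like cells 0 and 2.60 CPM. Vegfc and Angpt2 thus stood highest in different endothelial sub-clusters, in both libraries.

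The receptor Flt1, which binds Vegfa tightly and signals weakly, was the member seen in the largest share of endothelial-like cells. It stood at 4446 CPM in control endothelial-like cells (23133 UMIs, 99.7% of cells) and at 4074 CPM in cKO cells (35813 UMIs, 99.4% of cells), and after thinning it was still seen in 96.9% and 95.8%. In neuroblast-like cells, at median depths of 4400.5 and 4905 UMIs against 5928 and 7227.5 in endothelial-like cells, 3.52% and 6.58% held an Flt1 UMI. The log2 ratio of Flt1 in endothelial-like cells was -0.13 (-0.15 to -0.10).

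The receptor Kdr, the main signalling receptor for Vegfa, stood at 569.7 CPM in control (83.5% of cells) and 547 CPM in cKO endothelial-like cells (87.2%), a log2 ratio of -0.06 (-0.12 to 0.01). Its level differed between endothelial sub-clusters in the same order in both libraries. Kdr stood at 439.7 and 429.6 CPM in arterial-like cells and at 592 and 545 CPM in venous-like cells (27 and 83 cells). It stood at 717 and 683 CPM in sub-cluster 0, where Angpt2 was also highest and which was not named as a vessel type. Kdr UMIs were also seen in 5.56% and 6.14% of microglia-like cells (16.3 and 14.8 CPM) and in 7.04% and 7.33% of oligodendrocyte-like cells (11.8 and 10.5 CPM). They were seen as well in 29 of 239 control and 23 of 111 cKO ependymal-like cells (9.18 and 20.1 CPM). Those cells were far deeper, with medians of 17493 and 14781 UMIs. In astrocyte-like cells the shares were 1.26% and 0.786%, and in neuroblast-like cells 0.704% and 1.23%. Oligodendrocyte-like cells, with medians of 6393 and 7585 UMIs, were deeper than astrocyte-like cells. At 1000 UMIs per cell, 1.64% and 1.20% of microglia-like and 1.49% and 1.07% of oligodendrocyte-like cells held a Kdr UMI, against 0.496% and 0.196% of astrocyte-like cells. Microglia-like cells held 95 Kdr and 108 Flt1 UMIs in the control library, oligodendrocyte-like cells 77 and 82, and ependymal-like cells 50 and 27. Control endothelial-like cells held 2964 Kdr against 23133 Flt1 UMIs. Of the microglia-like Kdr UMIs, 1 of 95 in control and 15 of 64 in cKO lay in cells with at least 5 endothelial marker UMIs. In oligodendrocyte-like cells it was 0 of 77 and 0 of 49, and in ependymal-like cells 0 of 50 and 27 of 55. The part of endothelial or free RNA in the Kdr UMIs of these 3 classes was not tested.

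The angiopoietin receptor Tek stood at 407 CPM in control (79.7% of cells) and 382 CPM in cKO endothelial-like cells (82.9%), a log2 ratio of -0.09 (-0.17 to -0.01). In arterial-like cells Tek was at 466 and 417 CPM. Its partner Tie1 stood at 263 CPM in control (69.3% of cells) and 234 CPM in cKO (76.6%), a log2 ratio of -0.17 (-0.27 to -0.07). With all cells thinned to 1000 UMIs the Tie1 ratio was 0.12, the opposite sign, and no call was made either way. In the other 3 receptors the sign was negative in every alternative run, between -0.17 and -0.09 for Flt1, -0.08 and -0.02 for Kdr, and -0.12 and -0.05 for Tek. None of the 4 receptors reached 1.5-fold in endothelial-like cells in any alternative run.

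All 4 receptors were seen together in 367 of 685 control (53.6%) and 543 of 884 cKO (61.4%) endothelial-like cells, the deeper library having the larger share. Of the UMIs in each library's kept cells, the named and unnamed clusters with endothelial markers together held 97.2% and 98.1% for Flt1. For Kdr the shares were 92.5% and 96.6%. For Tek the shares were 96.9% and 98.0%, and for Tie1 97.3% and 97.8%.

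The promoters of 3 endothelial receptors are shown because these genes share their cell class. RefSeq promoter windows on build GRCm38.p6 were found for 8 of the 10 members, Angpt1 and Angpt2 being the others. Each sequence below holds the 250 bases before the RefSeq start, written 5′ to 3′ on the strand of the gene. Capitals mark the letters AGGAAG or CGGAAG, a core bound by ETS factors such as the endothelial Erg and Fli1, or their reverse complements CTTCCT and CTTCCG. The windows are chr5:147726012-147726261 on the minus strand for Flt1, chr5:75978456-75978705 on the minus strand for Kdr, and chr4:94739039-94739288 on the plus strand for Tek. That of Apln, chrX:48034854-48035103 on the minus strand, is shown beside them because Apln, known from endothelial tip cells, was highest in another class here.
Flt1: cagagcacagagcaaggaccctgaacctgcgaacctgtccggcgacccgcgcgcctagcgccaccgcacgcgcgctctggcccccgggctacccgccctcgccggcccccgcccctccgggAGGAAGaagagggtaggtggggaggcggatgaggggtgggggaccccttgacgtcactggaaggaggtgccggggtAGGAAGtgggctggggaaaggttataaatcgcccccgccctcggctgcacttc
Kdr: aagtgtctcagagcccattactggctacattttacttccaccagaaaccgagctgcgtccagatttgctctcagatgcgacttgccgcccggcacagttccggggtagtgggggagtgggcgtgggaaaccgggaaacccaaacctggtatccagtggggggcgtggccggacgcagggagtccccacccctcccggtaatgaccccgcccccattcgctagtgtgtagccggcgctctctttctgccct
Tek: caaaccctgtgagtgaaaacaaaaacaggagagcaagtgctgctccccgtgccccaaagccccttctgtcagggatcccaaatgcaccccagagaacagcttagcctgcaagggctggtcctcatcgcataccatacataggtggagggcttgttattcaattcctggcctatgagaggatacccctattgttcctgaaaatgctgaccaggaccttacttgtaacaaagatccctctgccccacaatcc
Apln: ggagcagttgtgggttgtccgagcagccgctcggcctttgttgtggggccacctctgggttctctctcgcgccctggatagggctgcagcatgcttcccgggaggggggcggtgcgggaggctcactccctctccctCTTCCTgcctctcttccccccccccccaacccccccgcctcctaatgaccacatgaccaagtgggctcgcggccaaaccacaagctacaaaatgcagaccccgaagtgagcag

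AGGAAG occurred at -129 and -53 from the start of Flt1, both on the strand of the gene, and at -113 on the opposite strand of Apln. The Kdr and Tek windows held neither ETS core. The Tie1 window, not printed because its RefSeq start lies 212 bases inside the GENCODE gene, held CGGAAG at -232 and AGGAAG on the opposite strand at -219. Of 32851 promoter windows of this length, 29.5% held AGGAAG and 13.6% held CGGAAG on either strand. The letters GCGTG, a core of the hypoxia response element, were found at -131 and -89 in the Kdr window and on the opposite strand at -184 in the Flt1 window, as well as at -47 in the Esm1 window, and 28.2% of all windows held them. ACGTG, its other form, was in 16.6% of all windows and in none of the members' windows searched. Vegfa had 2 windows, and only the one nearest the GENCODE start was searched. In that Vegfa window the GATA core AGATAA lay at -182, and 9.99% of all windows held this core. These are letter matches and not measured binding sites.

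On the same build (mm10), GENCODE vM21 places all 10 genes as protein-coding. The receptors Flt1 (chr5:147561604-147726011, minus strand) and Kdr (chr5:75932827-75978458, minus strand) share a chromosome, as do Tek (chr4:94739289-94874976, plus strand) and Tie1 (chr4:118471191-118490061, minus strand). The ligands are Vegfa (chr17:46016993-46032369, minus strand), Vegfc (chr8:54077606-54187096, plus strand), Angpt1 (chr15:42424723-42676977, minus strand) and Angpt2 (chr8:18690263-18741562, minus strand). Apln lies at chrX:48025146-48034853 on the minus strand and Esm1 at chr13:113209659-113218098 on the plus strand.

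Most Flt1 UMIs of cKO mural cells lay in a few cells that also held endothelial marker genes. In mural cells Flt1 stood at 55.3 CPM in control (36 UMIs) and 203 CPM in cKO (140 UMIs), the single member called in this class, higher in the cKO library at a log2 ratio of 1.88 (1.34 to 2.45). In the pericyte-like cells Flt1 was at 143 and 136 CPM (33 and 42 UMIs), a log2 ratio of -0.08 (-0.77 to 0.63). In the smooth-muscle-like cells it was 3 UMIs (7.13 CPM) against 98 UMIs (258 CPM), 36.2-fold with a counting interval of 12.04 to 179. Among mural cells, 17 cKO cells and 1 control cell held 5 or more UMIs of the endothelial markers Cldn5, Ly6c1, Itm2a and Slco1a4 summed. Those markers stood at 70.7 CPM in control and 658 CPM in cKO mural cells. The 17 cells held 90 of the 140 cKO Flt1 UMIs (64.3%), 20 of 21 Kdr UMIs and 10 of 12 Tek UMIs. Without such cells, an alternative added after seeing the data, mural Flt1 stood at 55.5 CPM in control and 83.1 CPM in cKO, a log2 ratio of 0.58 that was not called.

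In other classes, too, Flt1 UMIs were found in cells with those endothelial markers. Ependymal-like cells held 4.96 CPM of Flt1 in control and 29.96 CPM in cKO, where 70 of 82 UMIs lay in 8 cells with endothelial markers, and without such cells the levels were 4.99 and 5.06 CPM. In T or NK cell-like cells, 79 of 83 control Flt1 UMIs lay in 1 such cell and 90 of 96 cKO UMIs in 3. In microglia-like cells Flt1 stood at 18.6 and 27.0 CPM, a log2 ratio of 0.54 (0.15 to 0.93), and at 17.7 and 17.8 CPM without them. Control choroid plexus-like cells held 106 CPM of Flt1, with 458 of 474 UMIs in 36 such cells.

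Apln, known in endothelium as a tip cell gene, was found mostly in glia. Astrocyte-like cells held 73.5 CPM of Apln (68.8 to 78.5, 901 UMIs, 25.2% of cells) in control and 67.7 CPM (62.1 to 73.6, 547 UMIs, 24.8% of cells) in cKO, a log2 ratio of -0.12 (-0.28 to 0.04). Oligodendrocyte-like cells held 45.5 CPM of Apln (40.5 to 51.0, 23.9% of cells) and 37.9 CPM (32.5 to 43.9, 22.2%), a log2 ratio of -0.26 (-0.54 to 0.01). Of the Apln UMIs in kept cells, these classes held 67.5% and 22.3% in the control library, and astrocyte-like cells held 69.1% in the cKO library. In microglia-like cells 1.36% and 1.47% of cells had an Apln UMI. After thinning to 1000 UMIs the shares in astrocyte-like cells were 6.18% and 6.55%.

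Astrocyte clusters also differed in Apln, in an order other than that of Vegfa. Cluster 11 held 113 and 87.8 CPM of Apln and cluster 4 held 92.6 and 107 CPM, whereas cluster 18 held 28.5 and 12.03 CPM. Clusters 11 and 4 thus changed places between the libraries. Cluster 11 was shallow, with a median of 1558 UMIs per cell in 164 control and 133 cKO cells, against 4174 in cluster 4. Apln was seen in 29.4% of control astrocyte-like cells with a Vegfa UMI and 16.5% of those without, and in 29.0% and 17.3% in the cKO library. At 1000 UMIs per cell those shares were 6.31% and 6.13% in control and 8.43% and 5.98% in cKO, so in the control library the difference was not seen at equal depth.

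In endothelial-like cells Apln was rare and stood at 9.03 CPM in control (47 UMIs in 16 cells) and 1.82 CPM in cKO (16 UMIs in 14 cells). Its log2 ratio was -2.31 (-3.23 to -1.47), under the 20 CPM minimum, and 19 of the control UMIs came from a single cell. Without the cell of each library with most Apln UMIs it was -1.76 (-2.80 to -0.78). The share of endothelial-like cells with Apln was 2.34% in control and 1.58% in cKO. In sub-cluster 0, where Angpt2 was highest, Apln had 18 UMIs in control and 1 in cKO (15.5 and 0.421 CPM).

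Esm1, the other tip cell gene, was close to absent. Endothelial-like cells held 11 Esm1 UMIs in 3 control cells, 8 of them in 1 cell, and 0 UMIs in 884 cKO cells, which allows a share of up to 0.339% of cells with a UMI. All kept cells together held 20 Esm1 UMIs in control and 3 in cKO. Of the tip cell members Apln, Esm1 and Angpt2, at least 2 were seen together in 7 control and 1 cKO endothelial-like cells, and all 3 in 0 cells of either library. Those cells were Apln and Angpt2 pairs: 7 of 16 control cells with Apln (43.8%) and 1 of 14 cKO cells (7.14%) also held Angpt2.

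**Figure D3:**
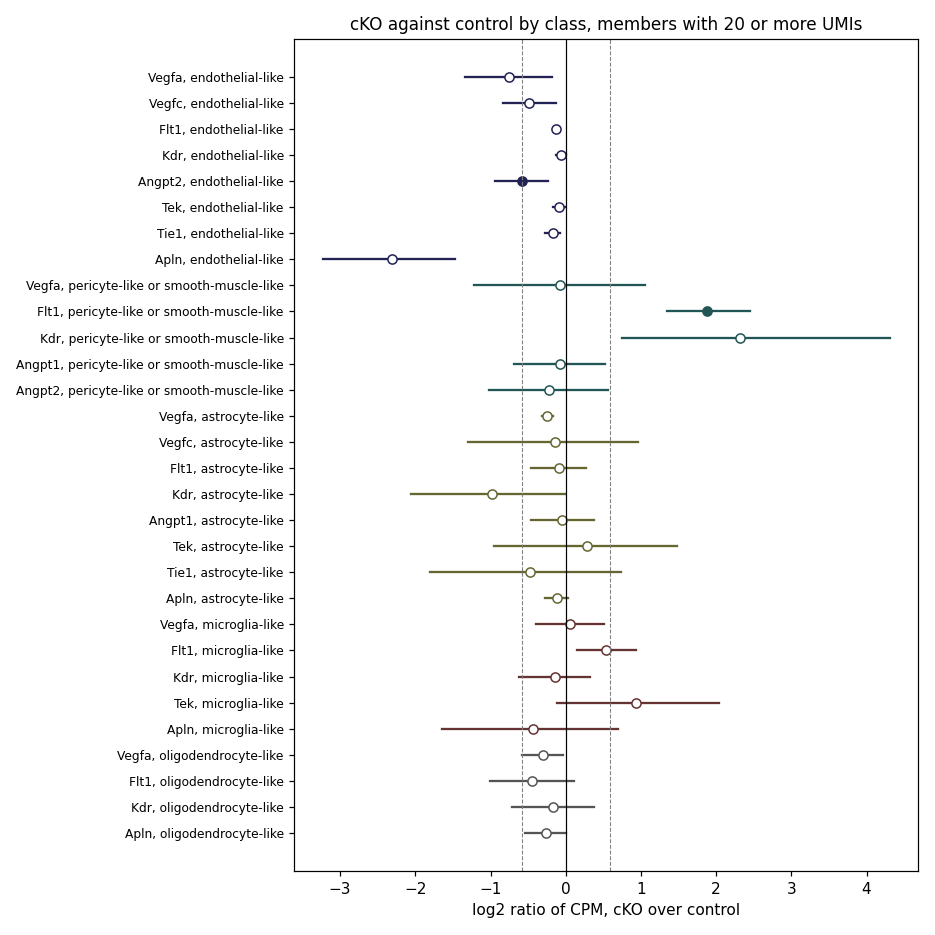
Log2 ratio (cKO over control) of the members with at least 20 UMIs in endothelial-like, mural, astrocyte-like, microglia-like and oligodendrocyte-like cells, 30 ratios in all, with exact conditional 95% intervals. The dashed lines mark 1.5-fold, and the 2 filled points are the called ones, Angpt2 in endothelial-like and Flt1 in mural cells.

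Counted over the members, 6 of 10 passed the 20 CPM minimum in endothelial-like cells, of which 0 were called higher and 1 was called lower, with a median log2 ratio of -0.15. The median over all genes tested there was 0.02. In mural cells 4 members passed the minimum and 1 was called higher, and in astrocyte-like cells 2 passed and 0 were called. In microglia-like cells 1 member passed and 0 were called, in oligodendrocyte-like cells 2 passed and 0 were called, and in ependymal-like cells 0 passed. In neuroblast-like cells 1 passed, Vegfa, and was called lower. With so few members measured, the counts cannot be set apart from the shares of all genes called.

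Other genes of these pathways were read from 6 lists that hold 56 further genes in the matrices. In endothelial-like cells, where 2.41% of all genes tested were called, 37 of these pathway genes passed the minimum. Of the 37, 0 were called higher and 2 were called lower, with a median log2 ratio of -0.02. The 2 were Dll4, the Notch ligand of tip cells, and Nr4a1, an immediate-early nuclear receptor. Dll4 stood at 55.9 CPM in control and 34.7 CPM in cKO, a log2 ratio of -0.69 (-0.93 to -0.45). Nr4a1 stood at 83.8 and 40.2 CPM, a log2 ratio of -1.06 (-1.27 to -0.86). Nr4a1 was among the leading genes of endothelial sub-cluster 2 (177 control and 88 cKO cells), with the immediate-early genes Fos and Egr1, and the part of this in the ratio was not tested. In microglia-like cells Nr4a1 went the other way, 53.8 CPM in control and 91.4 CPM in cKO, at a log2 ratio of 0.77. It was the single pathway gene called of 21 measured there, where 5.11% of all genes tested were called.

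Among the other VEGF family genes, 4 were measured in endothelial-like cells and 0 were called. The co-receptor Nrp1 stood at 198 CPM in control and 166 in cKO (log2 ratio -0.25), and the ligand Vegfb had -0.24, the co-receptor Nrp2 -0.09 and the Vegfc receptor Flt4 0.02. Of the angiopoietin and Tie list 2 genes were measured: Ptprb, the phosphatase that restrains Tek, at 1743 and 1751 CPM, and Foxo1, a transcription factor held in check by Tek signalling, with a log2 ratio of -0.08. The apelin receptor Aplnr was below the minimum, with 12 control and 14 cKO UMIs in endothelial-like cells.

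Besides Dll4, 5 tip cell genes were measured and 0 called, among them the peptide Adm (-0.23 on the log2 scale) and the basement membrane gene Nid2 (-0.20). Of 13 measured response genes only Nr4a1 was called, and the next in size were the endothelial transcription factors Sox18, at 203 and 266 CPM (0.39), and Sox17 (0.25). Of 12 measured hypoxia response genes 0 were called, with a median of -0.02. The largest of them were the collagen hydroxylase P4ha1 (-0.28), the stress gene Ndrg1 (0.23) and the glucose transporter Slc2a1 (0.20), which stood at 1528 CPM in control and 1757 in cKO.

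In mural cells 25 pathway genes were measured, 4 called higher (Ptprb, Eng, Arnt and Slc2a1) and 2 lower (Pgf and Nr4a1). Of all genes tested in mural cells 8.66% were called, 5.61% higher and 3.05% lower. Ptprb, Eng and Slc2a1 are also endothelial genes, and the endothelial marker level was higher in these cKO cells by the values given for Flt1; its part in these calls was not tested. Pgf, the placental growth factor that binds Flt1, stood at 87.6 CPM in control and 53.7 CPM in cKO mural cells, a log2 ratio of -0.70. In astrocyte-like cells 14 pathway genes were measured and 0 called, where 1.7% of all genes tested were called.

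Genes whose levels most resembled those of a member were found by Pearson's correlation of log2(CPM + 1) over 19 units, each a class in a library with at least 50 cells, among 12243 genes. The units share libraries and depth, so the values are descriptions. The receptor Flt1 was closest to Cyyr1 (0.99), Cdh5 (0.99) and Erg (0.98), Tek to Cldn5 (0.98), Abcb1a (0.98) and Sox17 (0.98), and Tie1 to Fmo2 (0.99), Robo4 (0.98) and Slc19a3 (0.97). Kdr was closest to Gm32688 (0.93), Eaf1 (0.92) and Gm9946 (0.91). Vegfa was closest to Cyp4f14 (0.93), Msmo1 (0.92) and Cyp2j9 (0.91). Apln was closest to Omg (0.93), a myelin glycoprotein gene, then Insig1 (0.88) and Nkx2-2 (0.88). Angpt1 was closest to Pgf (0.98), Ednra (0.93) and Cped1 (0.93), Angpt2 to Tinagl1 (0.96), Igfbp7 (0.95) and Lama4 (0.95), and Vegfc to Samd12 (0.89), Trim16 (0.87) and Alox12 (0.87). Esm1 was too sparse, at most 2.74 CPM in a unit, for its likeness to be read.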

How the data were processed

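As deposited, each matrix gives unnormalized UMI counts by gene for every barcode. Cell Ranger 7.1.0 is named per the file headers and in the submitters' processing notes, which also name build mm10. Its annotation release and intron setting were not given in the sources used here. As deposited, the control matrix (64756949 UMIs) held 10942 barcodes of at least 500 UMIs. The deposited cKO matrix (63785513 UMIs) was unfiltered, with 2377349 barcodes.

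Barcodes with at least 1000 UMIs and 500 genes and at most 10% mitochondrial UMIs were kept. Scrublet, with 6% expected doublets, removed 5.24% of control and 3.56% of cKO cells. Cells of both libraries were clustered together with scanpy 1.11.5 (2000 variable genes, 30 principal components, 15 neighbours, Leiden resolution 1.0, leidenalg 0.10.2), with the members and pathway genes kept out of the variable genes. A cluster was named from at least 3 markers seen in at least 10% of its cells at 2-fold over other clusters. It stayed unnamed if another class had more markers than its own among its top 10 genes, if it carried 75% of a second class's markers, or if it was shallow without own markers among those genes.

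UMIs were summed per class and library, using pandas 2.3.3, numpy 2.4.6 and scipy 1.17.1 in Python 3.11.15. Classes with at least 100 cells in both libraries were compared. Ratios within smaller units (clusters, sub-clusters and the pericyte-like and smooth-muscle-like parts) needed at least 50 cells in both libraries. A zero is given with the limit that 3 counts allow. On simulated endothelial-like sums of 6292 genes with 200 changed, the true log2 ratio lay inside the interval for 94, 96, 96 and 98% of 50 genes each, at ratios of 1, -1, 2 and -2. The sums were drawn as Poisson counts, the model that the interval assumes, so this checks the calculation only. It cannot show how the intervals hold for UMIs gathered in single cells or for variation between animals. Named are all members, the 3 genes most like each, the 3 largest ratios per pathway list in endothelial-like cells and all called there, and Plxnb2; pathway genes called in mural and microglia-like cells and the leading genes of clusters were named after their values were seen. The members and lists were chosen with earlier results of these data known.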

Additional observations from a re-analysis of the deposited data

Results flagged for a closer look

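The cKO matrix keeps 1448877 barcodes of 1 to 100 UMIs (3917906 UMIs in all) that no comparison above used, and every member was found there above the level that 3 counts give, 0.766 CPM. The control matrix has 0 such barcodes, so the libraries cannot be compared in this. In these barcodes Flt1 stood at 467 CPM (1829 UMIs), Vegfa at 138 CPM (542 UMIs), Kdr at 114 CPM (446 UMIs), Tek at 66.4 CPM (260 UMIs) and Tie1 at 48.2 CPM (189 UMIs). Apln stood at 20.9 CPM (82 UMIs), Angpt2 at 4.59 CPM (18 UMIs), Vegfc at 4.34 CPM (17 UMIs), Esm1 at 3.32 CPM (13 UMIs) and Angpt1 at 2.81 CPM (11 UMIs). For Esm1 these 13 UMIs outnumber the 3 found in all kept cKO cells.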

How the results depend on the processing

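A change of sign was counted only for member ratios called in the main run, and 0 of those changed sign under any alternative run. Ratios that were not called did change sign, as Kdr in mural cells (-1.89 to 2.86) and Vegfc in astrocyte-like cells (-0.93 to 2.78). Over 36 member ratios and 519 alternative values, 492 lay inside the interval of the main run and 27 outside it. The count of called members in endothelial-like cells (1) was 0 with a 50 CPM minimum, with 2-fold, with the mean of each cell's CPM, at 1000 UMIs per cell, with a 20% mitochondrial limit, with doublets kept and with clusters 7 and 17 joined, and 4 with no minimum (Vegfa, Angpt2, Apln and Esm1, all lower). The count of pathway genes there (2) was 1 with 50 CPM, 2-fold or cell means and 6 with no minimum. In mural cells (1) it was 3 with no minimum or with doublets kept, 4 with a 5% mitochondrial limit, and 0 at 1000 UMIs or without endothelial-marked cells. With no minimum 1 member was called in astrocyte-like cells (Kdr, lower) and 1 in microglia-like cells (Tie1, higher). By Spearman's correlation 13 of the 30 likest genes were kept. The class with the largest share of cells with a UMI was the same in both libraries for 9 members, and for 8 at 1000 UMIs. The arterial-like level of control Vegfc was 101.9 CPM at Leiden resolution 0.5. The joined clusters, the removal of endothelial-marked cells and of the cells with most UMIs were chosen after seeing the data. No paired analysis was possible because each group has 1 library. In members under 20 CPM, depth limits what can be seen.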

Other observations

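In unnamed cluster 7, deeper than the other endothelial clusters, Flt1 stood at 3994 CPM in control and 3394 CPM in cKO, and Kdr at 477 CPM in both. Angpt2 in cluster 7 stood at 24.9 and 17.1 CPM. In unnamed cluster 30 (16 control cells), which carried 10 astrocyte markers beside those of a second class, a Vegfa UMI was seen in every cell, at 409 CPM of Vegfa, and Apln stood at 114 CPM. Border macrophage-like cells held 38.8 CPM of Vegfa in control (23 UMIs) and 21.5 CPM in cKO (8 UMIs).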
